A study of Mus musculus with 143 samples.

Results

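Maturation promoting factor is the complex of the kinase CDK1 with a B-type cyclin that takes an oocyte out of prophase arrest and into the meiotic divisions. The 10 genes described here encode that kinase (Cdk1), its cyclins (Ccnb1, Ccnb2, Ccnb3 and Ccna2), the kinases that hold it inactive (Wee2 and Pkmyt1) and the phosphatases that release it (Cdc25a, Cdc25b and Cdc25c). They were chosen by function, from textbook knowledge of the complex and its regulators, out of 55573 gene IDs in the poly(A) files and 55487 in the RiboMinus files. All 10 passed the filter on low counts in every comparison.

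The samples were mouse oocytes from control females and from mutant mice in which Dis3, Exosc10 or both (dcKO, double conditional knockout) were deleted. The mutants were made with CRISPR/Cas9, and the labels name neither the Cre line nor the allele that the controls carry. DIS3 and EXOSC10 are ribonucleases of the nuclear RNA exosome, which trims and degrades RNA. Single-oocyte poly(A) libraries came from oocytes still arrested in prophase (GV, for germinal vesicle; 8 control and 15 Dis3 conditional knockout, cKO), from GV oocytes cultured for 3 h (GV3h; 8 and 16), and from metaphase II eggs taken from oviducts after superovulation (MII; 8 and 16). Single-oocyte RiboMinus libraries, made from total RNA depleted of ribosomal RNA and primed with random hexamers, came from GV oocytes (control and Dis3 cKO) and from oocytes of postnatal day 20 (p20), where the groups were control, the Dis3 and Exosc10 single knockouts and dcKO, with 8 libraries in each group. The labels give the stage of the former only as GV, and they are called adult GV here after the titles of the chromatin libraries of that stage. Each library is 1 oocyte, and p-values measure the spread between oocytes, since the labels do not say how many females they came from.

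In a fully grown oocyte CDK1 is kept inactive by phosphate groups added by WEE2, the oocyte-specific member of the WEE1 family, and by the membrane-bound kinase MYT1 (gene Pkmyt1). CDC25 phosphatases remove these groups, and in mouse oocytes CDC25B has the leading part at the resumption of meiosis. Cyclin B1 is the main partner of CDK1 at this step, its messenger RNA is stored and translated after its poly(A) tail is lengthened, cyclin B2 can stand in for it, and cyclin B3 is needed for the first meiotic anaphase in female mice.

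The promoters of these genes differ in short motifs of the cell cycle. RefSeq (build GRCm38.p6) gave a promoter for 7 of the 10 members, each 300 bases long, from 250 before the annotated start to 50 after it. The letters CCAAT (or ATTGG on the other strand) and the cell cycle element TTTGAA (or TTCAAA) were searched in each, and they are known as a pair from promoters of genes that peak in mitosis. Of 32851 promoters in the same table, 37.4% held CCAAT and 17.9% held TTTGAA on either strand. The promoters of the kinase and its 2 mitotic cyclins are given because their RNA moved in opposite directions between GV and MII, and those of Ccnb3 and Cdc25b because, among the 7 members with a listed promoter, these had the largest called falls in the knockouts. Capitals mark the matches, and each sequence runs 5′ to 3′ on the strand of its gene.
Cdk1 (chr10:69352863-69353162, minus strand): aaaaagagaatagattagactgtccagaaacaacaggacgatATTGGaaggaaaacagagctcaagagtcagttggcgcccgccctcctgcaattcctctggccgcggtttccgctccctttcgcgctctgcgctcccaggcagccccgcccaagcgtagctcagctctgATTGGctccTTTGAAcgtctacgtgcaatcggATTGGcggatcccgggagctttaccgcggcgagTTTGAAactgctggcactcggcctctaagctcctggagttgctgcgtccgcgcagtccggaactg
Ccnb1 (chr13:100786437-100786736, minus strand): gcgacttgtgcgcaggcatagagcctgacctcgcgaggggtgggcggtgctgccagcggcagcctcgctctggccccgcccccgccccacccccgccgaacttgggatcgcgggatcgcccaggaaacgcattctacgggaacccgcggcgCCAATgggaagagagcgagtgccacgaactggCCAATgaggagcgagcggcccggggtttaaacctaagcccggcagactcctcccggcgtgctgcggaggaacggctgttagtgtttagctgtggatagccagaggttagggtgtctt
Ccnb2 (chr9:70421505-70421804, minus strand): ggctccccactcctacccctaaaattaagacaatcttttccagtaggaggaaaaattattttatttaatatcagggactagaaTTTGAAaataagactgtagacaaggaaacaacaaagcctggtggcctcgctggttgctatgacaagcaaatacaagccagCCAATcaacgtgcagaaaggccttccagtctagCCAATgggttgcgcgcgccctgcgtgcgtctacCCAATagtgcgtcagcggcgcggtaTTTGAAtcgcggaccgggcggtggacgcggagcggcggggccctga
Ccnb3 (chrX:7041570-7041869, minus strand): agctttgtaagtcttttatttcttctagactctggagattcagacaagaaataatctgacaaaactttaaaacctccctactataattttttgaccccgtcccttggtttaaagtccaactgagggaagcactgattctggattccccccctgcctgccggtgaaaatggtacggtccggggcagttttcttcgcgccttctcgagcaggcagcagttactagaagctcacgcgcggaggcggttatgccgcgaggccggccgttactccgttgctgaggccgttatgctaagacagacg
Cdc25b (chr2:131186698-131186997, plus strand): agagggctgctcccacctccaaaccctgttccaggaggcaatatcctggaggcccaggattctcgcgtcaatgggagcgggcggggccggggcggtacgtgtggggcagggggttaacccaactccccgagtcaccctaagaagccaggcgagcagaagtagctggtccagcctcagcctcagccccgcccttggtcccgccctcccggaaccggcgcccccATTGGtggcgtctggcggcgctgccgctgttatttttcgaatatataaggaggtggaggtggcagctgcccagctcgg
Cdk1 and Ccnb2 held 3 CCAAT and 2 TTTGAA matches each. Ccnb1 held 2 CCAAT matches, Cdc25b held 1, and neither held TTTGAA. Ccnb3 held 0 of both in this window. Wee2 and Cdc25a had 2 CCAAT matches each and 0 of TTTGAA. A match is a description of letters and not a binding site, and the starts listed for Ccnb3, Wee2, Cdc25a and Cdc25b lie inside the outer limits of the gene, furthest inside for Wee2.

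The RefSeq genes of the same build place Cdk1 (ENSMUSG00000019942, chr10:69335146-69352912), Ccnb1 (ENSMUSG00000041431, chr13:100778739-100786486), Ccnb2 (ENSMUSG00000032218, chr9:70407689-70421554), Ccnb3 (ENSMUSG00000051592, chrX:6979652-7041635) and Cdc25b (ENSMUSG00000027330, chr2:131186436-131198511) where no other listed gene overlaps them. Ccna2 (ENSMUSG00000027715, chr3:36564865-36573038) overlaps Exosc9, which encodes another exosome subunit. Wee2 (ENSMUSG00000037159, chr6:40435246-40466815) overlaps Dennd11, Pkmyt1 (ENSMUSG00000023908, chr17:23726336-23736735) overlaps Paqr4 and 1520401A03Rik, Cdc25a (ENSMUSG00000032477, chr9:109875518-109893895) overlaps Mir7089, and Cdc25c (ENSMUSG00000044201) overlaps Gm3550. Whether counting used strand is not given in the sources used here, so reads of these 5 members may include reads of the gene they overlap. The pseudogene Ccnb1-ps, a near copy of Ccnb1, was counted at 3.71 CPM (counts per 1000000, scaled as described under processing) on average in GV controls. Ccnb2-ps stayed under 1.5 CPM in every library.

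Gene counts per library ran from 4843964 to 15412200 in 71 poly(A) libraries and from 8492102 to 35429028 in 48 RiboMinus libraries. The targeted genes followed the labels: Dis3 was lower in each group labelled Dis3 cKO or dcKO (for example -2.18 ± 0.38 on the log2 scale at GV), and Exosc10 was lower in the Exosc10 cKO (-5.22 ± 0.41) and dcKO groups (-4.01 ± 0.39). Some libraries stood apart. GV Dis3 cKO oocytes 6 and 8 had 117 and 127 CPM of Ccnb1, where the other 13 had 357 to 493.1. MII controls 6, 7 and 8 had 2.67, 5.39 and 3.64 CPM of Dis3, where the other 5 had 9.53 to 20.9. All 10 oocyte markers were detected in each group, with summed levels of 7763 to 25284 CPM over all libraries. Of 14 granulosa and cumulus markers, 9 to 13 had a read in at least 1 library of a group, and their sums were 44.4 to 204 CPM, most of it from Nr5a2 and Cyp19a1. Areg was at 0 in every library, and Ptx3 in all groups but p20 Dis3 cKO. The sums ran from 90.9 to 169 CPM in GV controls and 58.6 to 192 in Dis3 cKO, from 68.3 to 101 and 44.4 to 80.9 at GV3h, and from 81.8 to 204 and 50.9 to 86.9 at MII. They ran from 74.4 to 118 CPM in adult RiboMinus controls, 77.8 to 153 in adult Dis3 cKO, 108 to 139.6 in p20 controls and 96.2 to 169.9 in the p20 knockouts. The medians were lower in the poly(A) Dis3 cKO groups than in controls and higher in the RiboMinus knockout groups, and their part in the results was not tested.

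The plot of poly(A) levels gives each member in each oocyte.

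**Figure D1:**
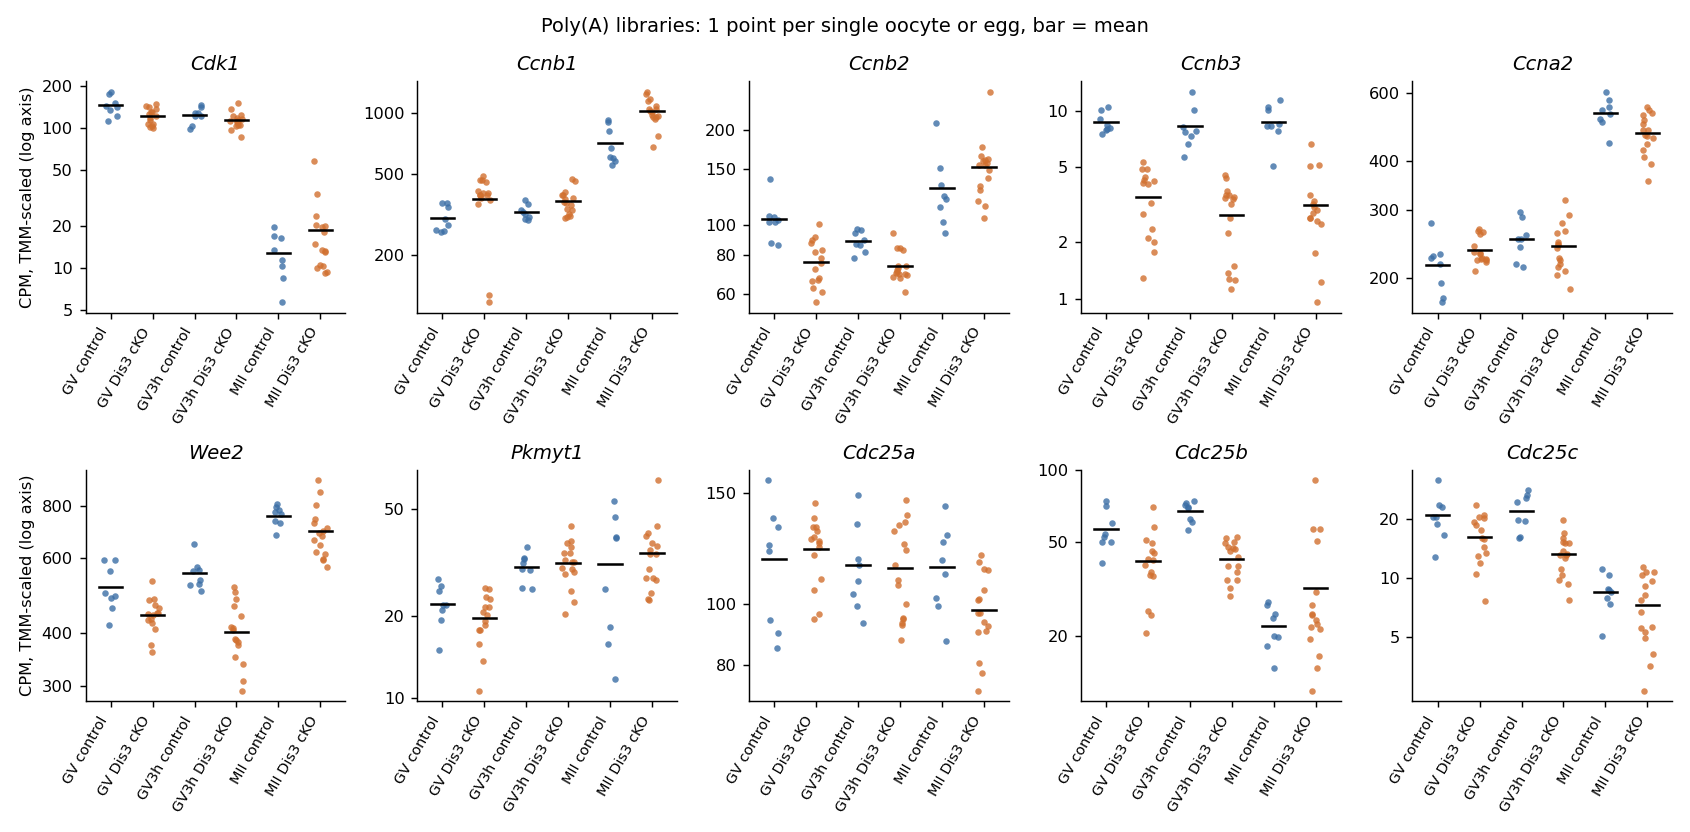
Level of each of the 10 genes in poly(A) libraries, as TMM-scaled CPM on a log axis that differs between panels; each point is 1 oocyte or egg (blue control, orange Dis3 cKO) and each black bar is the group mean. Cdk1 falls from 112 to 182 CPM in GV controls to 5.71 to 19.6 CPM in MII controls, Ccnb1 and Ccna2 rise, and Ccnb3 is lower in every Dis3 cKO group.

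Between GV and MII most of the members changed in their share of the poly(A) RNA. In controls 5 rose and 3 fell, against 58.5% of 17389 genes called in that comparison (called means an adjusted p under 0.05). In Dis3 cKO 5 rose and 3 fell as well, where 63.3% of genes were called. The count is 8 of 10 in each genotype, where most genes of the oocyte also changed. Ranges of single oocytes did not overlap for 6 of 10 members in controls. The same held for 32.4% of 14836 genes with a mean of at least 1 CPM. In Dis3 cKO 5 of 10 members did not overlap, where 11.6% of these genes did not. After 3 h in culture few members moved: 0 of 10 in controls by edgeR or DESeq2, with 2 at an unadjusted p under 0.05 in edgeR (2.71% of genes called), and 1, Pkmyt1, in Dis3 cKO (17.3%). In controls, Pkmyt1 passed with only the 2 groups fitted and Ccna2 without GV control 1 (0.31, adjusted p = 0.045).

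In the Dis3 cKO about as large a share of the members changed as of all genes. Of 10 members, 0 rose and 3 fell at GV, where 21.9% of all genes were called. At GV3h 0 rose and 5 fell (38.6% called), and at MII 3 rose and 1 fell (42.1% called). In adult GV oocytes sequenced by RiboMinus 1 rose and 3 fell (28.1% called). In both directions together these counts lie close to the background shares. Of all genes 2358 rose and 1448 fell at GV, and 3989 rose and 2729 fell at GV3h. At MII 4743 rose and 2572 fell, and in adult RiboMinus libraries 2405 rose and 1900 fell. Except at MII the called members thus leaned lower where the called genes leaned higher, and this split was not tested. The medians of the members' log2 fold changes were -0.23 against 0.04 for all genes at GV, -0.19 against 0.07 at GV3h, 0.01 against 0.16 at MII and -0.08 against 0.03 in adult RiboMinus libraries. Ranges did not overlap for 1 member at GV (3.45% of genes with a mean of at least 1 CPM) and 2 at GV3h (9.98%). They did not for 0 at MII (3.93%) and 3 in adult RiboMinus libraries (7.60%).

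At p20 the single knockouts moved 1 member each and the double knockout 4. Cdc25b fell in Dis3 cKO, where 7.37% of genes were called, and also in Exosc10 cKO, where 7.45% were called. In dcKO 0 rose and 4 fell (53.7% called). These 3 comparisons share the p20 control libraries. Against Dis3 cKO the dcKO had 1 member higher and 4 lower (51.5% called), and against Exosc10 cKO 2 higher and 4 lower (49.2% called). Adult and p20 controls differed in 3 members, all higher in adults (19.1% called). Ranges of single oocytes did not overlap for 1 member each in Dis3 cKO, Exosc10 cKO and dcKO against control. The shares among 13621 genes with a mean of at least 1 CPM were 2.90%, 1.95% and 21.7%. The count was also 1 for dcKO against Dis3 cKO (16.3%) and against Exosc10 cKO (14.3%), and 0 between ages (6.33%).

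The effect of Dis3 loss was compared between stages as a difference of log2 fold changes. Between GV3h and GV 0 of 10 members differed by edgeR or DESeq2 (2.04% of genes called by edgeR), and 1, Wee2, had an unadjusted p under 0.05 (adjusted p = 0.31). Between MII and GV 3 members differed, Cdk1, Ccnb2 and Cdc25b, all with a higher value at MII (13.2% called). Between adult GV and p20 oocytes 0 differed by edgeR (9.32% called) and 1, Ccnb3, by DESeq2, with 4 at an unadjusted p under 0.05 in edgeR.

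The kinase itself showed the largest change of the set with stage. Cdk1, which encodes the catalytic subunit, was at 112 to 182 CPM (median 143) in GV controls and at 5.71 to 19.6 CPM (median 12.4) in MII controls. The ranges did not overlap, and every MII egg was below every GV oocyte. The mean fell from 145 ± 24.2 to 12.8 ± 4.69 CPM, which was 11.4-fold lower (log2 fold change -3.51, SE 0.24, adjusted p = 1.8e-21). In Dis3 cKO the fall was from 100.1 to 149 CPM (median 121) to 9.16 to 58.3 CPM (median 14.1), again with no overlap (6.53-fold lower, log2 fold change -2.71, SE 0.16, adjusted p = 1.6e-24). Culture for 3 h left Cdk1 at 98.2 to 146 CPM (median 125) in controls and 86.8 to 149.8 CPM (median 112) in Dis3 cKO, ranges that overlapped those of GV oocytes.

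Cdk1 at MII was higher in Dis3 cKO than in control eggs on average (1.46-fold, log2 fold change 0.55, SE 0.20, adjusted p = 0.02), and the difference of this effect from that at GV was 0.80 ± 0.27 (SE), adjusted p = 0.036. The ranges overlapped, with 5 of 16 knockout eggs above every control. Eggs 7 and 11 of the Dis3 cKO group had 58.3 and 34.02 CPM, and the other 14 had 9.16 to 23.6. Eggs 7 and 11 had 81.0 and 73.7 gene counts per count of added ERCC RNA, against a group median of 53.3. Eggs 5 and 6, among the other 14, had 71.5 and 73.5, and the part of this ratio was not tested. Without eggs 7 and 11, a choice made after their values were seen, the log2 fold change was 0.20, adjusted p = 0.28. The difference between stages was then 0.46, adjusted p = 0.13. Without MII controls 6 to 8 the difference at MII was 0.50, adjusted p = 0.078 and that between stages 0.76, adjusted p = 0.075, and without GV control 1 the latter was 0.73, adjusted p = 0.069. Each of these choices of libraries ended the call. With only the 2 MII groups fitted the difference at MII was 0.52, adjusted p = 0.21, and with no low-count filter that between stages was 0.77, adjusted p = 0.068. With title numbers 1 to 8 only they were 0.56, adjusted p = 0.057 and 0.80, adjusted p = 0.11. With a block on these numbers they were 0.46, adjusted p = 0.14 and 0.69, adjusted p = 0.19.

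With TMM scaling edgeR called Cdk1 in no RiboMinus comparison of a knockout with control. It was at 40.6 to 54.1 CPM (median 47.1) in adult controls and 35.97 to 47.9 CPM (median 39.1) in adult Dis3 cKO oocytes, ranges that overlapped (log2 fold change -0.21, SE 0.08, adjusted p = 0.061). In this comparison DESeq2 called it lower (-0.22, adjusted p = 0.04), as did edgeR with ERCC scaling (-0.78, adjusted p = 0.0024). At p20 it was at 43.3 to 60.4 CPM (median 53.5) in controls, 44.5 to 91.9 CPM (median 54.01) in Dis3 cKO, 46.1 to 70.4 CPM (median 58.1) in Exosc10 cKO and 48.3 to 66.5 CPM (median 57.2) in dcKO. At p20 the ranges overlapped, and log2 fold changes against control were 0.11 ± 0.11, 0.15 ± 0.11 and 0.12 ± 0.11 (SE). Oocyte 1_4 of the p20 Dis3 cKO group, at 91.9 CPM, was the highest p20 oocyte, and without it the Dis3 cKO value was -0.03. This oocyte had 547 gene counts per ERCC count, the fewest of its group, against a group median of 1087. The Dis3 cKO value was also below 0 with first title number 2 only (-0.07) and with ERCC scaling (-0.26).

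Ccnb1, which encodes cyclin B1, the main activating partner, rose as Cdk1 fell. It was at 259 to 363 CPM (median 290.4) in GV controls, 299 to 374 CPM (median 323) at GV3h and 558 to 932 CPM (median 642) in MII eggs. Every control MII egg was above every GV oocyte, and the mean was 2.33-fold higher (log2 fold change 1.22, SE 0.16, adjusted p = 5.9e-10). In Dis3 cKO the values were 117 to 493.1 CPM (median 398), 305 to 474 CPM (median 363) and 682 to 1283 CPM (median 1021), and the rise from GV to MII was 2.71-fold (log2 fold change 1.44, SE 0.12, adjusted p = 2.8e-18). Ccnb1-ps rose with it, from 3.71 ± 1.16 to 7.67 ± 2.15 CPM in controls, and reads shared between the copies cannot be told apart in these counts.

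Dis3 cKO eggs held more Ccnb1 than control eggs at MII, 1023 ± 156 CPM (SD, n = 16) against 711 ± 153 CPM (SD, n = 8) (1.44-fold, log2 fold change 0.53, SE 0.14, adjusted p = 0.0016). The groups overlapped: MII controls 6, 7 and 8 were at 909.7, 820.2 and 932 CPM and the other 5 at 558 to 675. Those 3 controls are the ones with low Dis3, and without them the log2 fold change was 0.76, adjusted p = 2.0e-04. They also had the highest Ccnb1 of the controls and were left out after the data were seen. The value without them therefore gives no support to a larger difference. At GV the difference was 0.31 ± 0.14 (SE), adjusted p = 0.11, with 13 of 15 knockout oocytes at 357 CPM or more and 2 below every control. Without those 2 oocytes (6 and 8) the log2 fold change was 0.41, adjusted p = 0.0011, but they were picked for their low Ccnb1, so this value does not support a difference. The difference at GV3h was 0.17 ± 0.14 (SE), adjusted p = 0.34.

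RiboMinus libraries, which do not select on the poly(A) tail, showed the same direction in adult GV oocytes. Ccnb1 was at 204 to 283 CPM (median 260.1) in controls and 301 to 346 CPM (median 328) in Dis3 cKO oocytes, with every knockout oocyte above every control (1.296-fold, log2 fold change 0.37, SE 0.07, adjusted p = 6.4e-04). By the tags in the titles, which may name animals, controls were at 279.7 ± 4.47 and 231 ± 19.8 CPM and knockouts at 328 ± 17.95 and 322 ± 19.8 (SD, n = 4 each). When counts were summed per tag, leaving 2 sums in each group, the log2 fold change was 0.33, adjusted p = 0.3. With ERCC scaling the direction turned, to -0.17, where the median gene was at -0.52. At p20 Ccnb1 was at 222 ± 20.1 CPM in controls, 243 ± 25.8 in Dis3 cKO, 241 ± 19.04 in Exosc10 cKO and 193 ± 26.3 in dcKO. The dcKO was lower than control (-0.19 ± 0.08 (SE), adjusted p = 0.046), than Dis3 cKO (-0.32 ± 0.08 (SE), adjusted p = 0.001) and than Exosc10 cKO (-0.30 ± 0.08 (SE), adjusted p = 0.0019), with overlap in each case, and against control the call was lost under 8 of 9 alternatives. Against Dis3 cKO it was lost with ERCC scaling (-0.04, adjusted p = 0.88) and with first title number 2 only (-0.28, adjusted p = 0.084). Against Exosc10 cKO it was lost in the same settings (-0.33, adjusted p = 0.16 and -0.27, adjusted p = 0.093) and with counts summed per tag (-0.32, adjusted p = 0.054).

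Ccnb2, whose product cyclin B2 can also activate CDK1, fell in Dis3 cKO oocytes before MII. At GV it was at 85.97 to 139.6 CPM (median 103) in controls and 56.7 to 100.4 CPM (median 75.3) in Dis3 cKO, and the mean fell 1.37-fold (log2 fold change -0.46, SE 0.11, adjusted p = 0.0011). At GV3h it was at 78.1 to 96.9 and 61.1 to 94.2 CPM (log2 fold change -0.26, SE 0.11, adjusted p = 0.049), and in adult RiboMinus libraries at 75.1 to 99.5 and 52.6 to 85.7 CPM (log2 fold change -0.34, SE 0.10, adjusted p = 0.015, or -0.39, adjusted p = 0.32 with counts summed per title tag). Control and knockout ranges overlapped in all 3. The GV3h call was lost under 5 of 9 alternatives, among them DESeq2 (-0.27, adjusted p = 0.054), no low-count filter (-0.27, adjusted p = 0.077) and title numbers 1 to 8 only (-0.16, adjusted p = 0.3). At MII the sign was the other way, with 93.97 to 211 CPM in controls and 105 to 265 in Dis3 cKO (log2 fold change 0.22, SE 0.11, adjusted p = 0.1, or 0.47, adjusted p = 0.002 without MII controls 6 to 8), and the effect at MII differed from that at GV by 0.68 ± 0.16 (SE), adjusted p = 0.0016. This difference between stages kept its call without eggs 7 and 11 (0.69, adjusted p = 0.0014). MII controls 6 to 8 were left out after the data were seen, so the MII value without them gives no support to a difference.

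From GV to MII Ccnb2 rose 2.01-fold in Dis3 cKO, where no egg was as low as any GV oocyte (log2 fold change 1.01, SE 0.09, adjusted p = 9.5e-16). In controls the rise was 1.26-fold with overlap (log2 fold change 0.33, SE 0.13, adjusted p = 0.021), and it was 0.09, adjusted p = 0.61 without MII controls 6 to 8. At p20 Ccnb2 was at 97.1 to 117 CPM in controls, 66.04 to 122 in Dis3 cKO, 82.6 to 127 in Exosc10 cKO and 68.96 to 119.5 in dcKO. The fall in Dis3 cKO missed the threshold (-0.35 ± 0.11 (SE), adjusted p = 0.053). It passed with ERCC scaling (-0.70, adjusted p = 0.0051), with only the 2 groups fitted (-0.35, adjusted p = 0.032) and with first title number 2 only (-0.54, adjusted p = 0.034), but not with number 1 only (-0.19, adjusted p = 0.55) or with counts summed per tag (-0.35, adjusted p = 0.38). Without oocyte 1_4, the highest of its group, it was -0.46, adjusted p = 0.0038, a value that gives no support because the oocyte was picked for its high level.

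Ccnb3, which encodes the meiotic cyclin B3, had the largest fold change of the members in 6 of 7 comparisons of a knockout with control, 5 of them past the threshold. In GV controls it was at 8.102, 7.94, 8.03, 8.997, 7.55, 10.5, 8.38 and 10.1 CPM, and in the 15 Dis3 cKO oocytes at 1.29 to 5.35 CPM (median 4.06). Each knockout oocyte was below each control (2.51-fold lower, log2 fold change -1.33, SE 0.24, adjusted p = 1.7e-05). The same separation was seen at GV3h, with 5.698 to 12.6 against 1.13 to 4.58 CPM (2.95-fold lower, log2 fold change -1.56, SE 0.24, adjusted p = 2.3e-07). At MII the ranges overlapped at their ends, 5.09 to 11.5 against 0.962 to 6.69 CPM (2.77-fold lower, log2 fold change -1.47, SE 0.24, adjusted p = 7.0e-07). With stage the level passed no threshold, at 0.01 ± 0.28 (log2, SE) from GV to MII in controls and -0.14 ± 0.21 in Dis3 cKO. Raw counts behind these values were 45 to 107 reads per control and 12 to 49 per knockout oocyte at GV.

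In adult RiboMinus libraries Ccnb3 was at 8.79, 9.15, 9.72, 9.63, 11.2, 10.4, 15.4 and 9.297 CPM in controls and 4.15, 3.07, 1.97, 6.12, 4.72, 4.66, 6.23 and 7.74 in Dis3 cKO oocytes. All 8 knockout oocytes were below all 8 controls (2.13-fold lower, log2 fold change -1.09, SE 0.22, adjusted p = 0.0014), and with counts summed per title tag the log2 fold change was -1.12, adjusted p = 0.18. The direction was the same in both protocols.

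At p20 the lowest Ccnb3 levels were those of the double knockout. Ccnb3 was at 12.5, 10.4, 9.602, 8.33, 8.72, 7.51, 9.06 and 6.35 CPM in controls and 8.17, 4.399, 13.4, 9.496, 3.25, 9.87, 15.2 and 15.1 in Dis3 cKO, where the spread was wide and the difference from control was 0.13 ± 0.36 (SE), adjusted p = 0.9. Exosc10 cKO oocytes were at 3.78, 4.34, 5.61, 6.48, 7.26, 2.83, 2.17 and 6.25 CPM, 1.88-fold lower on average, which did not pass in the fit of all p20 groups (log2 fold change -0.91, SE 0.36, adjusted p = 0.13) and passed with only these 2 groups fitted (-0.90, adjusted p = 0.02). In dcKO oocytes Ccnb3 was at 0.828, 0.0702, 0.211, 0.259, 1.25, 0.577, 1.16 and 2.48 CPM, from 1 to 28 reads per library. Every dcKO oocyte was below every oocyte of the control and Dis3 cKO groups (10.6-fold below control, log2 fold change -3.41, SE 0.42, adjusted p = 3.3e-08). The dcKO oocytes with first title number 1 were at 0.342 ± 0.334 CPM and those with number 2 at 1.37 ± 0.799. The difference from control was -4.98 with number 1 only and -2.51 with number 2 only, the ends of the range over the alternatives run. The dcKO was also lower than Dis3 cKO (-3.54 ± 0.42 (SE), adjusted p = 2.4e-08) and Exosc10 cKO (-2.50 ± 0.41 (SE), adjusted p = 6.2e-06). The difference between the Dis3 effect in adults and at p20 was -1.23 ± 0.46 (SE), adjusted p = 0.084, and DESeq2 gave it -1.21, adjusted p = 0.048.

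The plot of RiboMinus levels shows these groups side by side.

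**Figure D2:**
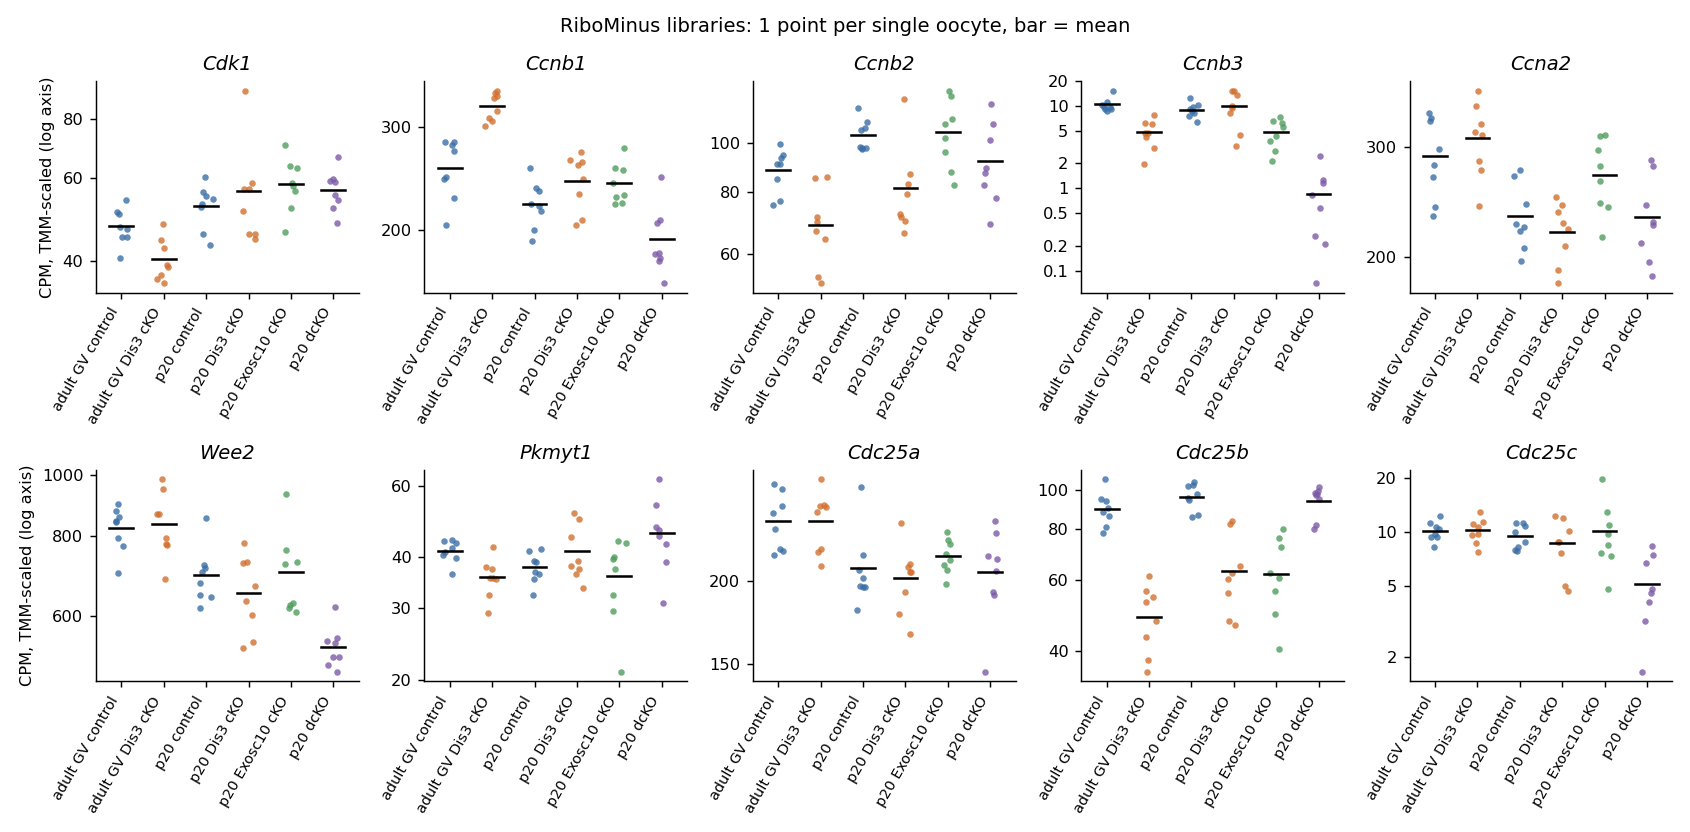
Level of each of the 10 genes in RiboMinus libraries, as TMM-scaled CPM on a log axis that differs between panels; each point is 1 oocyte (blue control, orange Dis3 cKO, green Exosc10 cKO, purple dcKO) and each black bar is the group mean. Ccnb3 lies between 0.0702 and 2.48 CPM in dcKO oocytes and above 6 CPM in every p20 control, and Cdc25b is low in both p20 single knockouts and near the controls in dcKO.

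Ccna2, which encodes cyclin A2, a partner of CDK1 and CDK2, changed with stage. With TMM scaling and all groups and libraries fitted, edgeR called it in no comparison of a knockout with control. At MII it was called lower in Dis3 cKO with RLE size factors (-0.21, adjusted p = 0.027) and by DESeq2 (-0.21, adjusted p = 0.034), against log2 fold change -0.18, SE 0.08, adjusted p = 0.064 with TMM. It was at 173 to 278 CPM (median 222) in GV controls and 447 to 606 CPM (median 537) in MII controls, with no overlap (2.48-fold higher, log2 fold change 1.31, SE 0.09, adjusted p = 2.1e-20). In Dis3 cKO it was at 209 to 267 CPM (median 231) and 356 to 552 CPM (median 475), again apart (log2 fold change 1.00, SE 0.07, adjusted p = 2.8e-22). The 3 poly(A) comparisons of knockout with control gave 0.13 ± 0.08, -0.06 ± 0.08 and -0.18 ± 0.08 (log2, SE). In RiboMinus libraries adult controls were higher than p20 controls, at 233 to 339.7 against 197 to 275 CPM (log2 fold change 0.32, SE 0.10, adjusted p = 0.015). This call was lost with counts summed per title tag, and with ERCC scaling the value was -1.37, where the median gene was at -1.69. The adult and p20 libraries also come from different females, which cannot be told apart from age.

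Of the inhibitory kinases, Wee2 fell in 3 of 7 comparisons of a knockout with control and rose from GV to MII. In GV oocytes it was at 418 to 596 CPM (median 493.01) in controls and 360.1 to 530.4 CPM (median 443) in Dis3 cKO, overlapping ranges with a small difference in mean (log2 fold change -0.22, SE 0.08, adjusted p = 0.045), a call that was lost under 5 of 9 alternatives: without GV control 1 (-0.21, adjusted p = 0.073), without knockout oocytes 6 and 8 (-0.22, adjusted p = 0.054), with DESeq2 (-0.21, adjusted p = 0.063), with its size factors in edgeR (-0.21, adjusted p = 0.067) and with no filter on low counts (-0.23, adjusted p = 0.074). At GV3h it was at 503 to 648 CPM (median 547) and 292 to 513 CPM (median 397), where 15 of 16 knockout oocytes were below the lowest control (1.37-fold lower, log2 fold change -0.46, SE 0.08, adjusted p = 3.3e-06). At MII it was at 681 to 807 and 573 to 918 CPM, which did not pass the threshold (log2 fold change -0.12, SE 0.08, adjusted p = 0.22), and neither difference of the effect between stages did (-0.24 ± 0.11 and 0.09 ± 0.11). From GV to MII it rose 1.48-fold in controls and 1.58-fold in Dis3 cKO, without overlap in either genotype.

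In RiboMinus libraries Wee2 in adult oocytes did not differ detectably with Dis3 loss, at 824 ± 64.5 CPM (SD, n = 8) against 838 ± 98.1 CPM (SD, n = 8) (log2 fold change 0.05, SE 0.07, adjusted p = 0.66). With ERCC scaling it was called lower, at -0.52, where the median gene was also at -0.52. At p20 it was at 617 to 855 CPM in controls, 535 to 783 in Dis3 cKO, 609 to 932 in Exosc10 cKO and 491 to 621 in dcKO. The dcKO group was lowest, with 7 of 8 oocytes below every control (log2 fold change -0.37, SE 0.09, adjusted p = 5.4e-04). It was lower than Dis3 cKO (-0.28 ± 0.09 (SE), adjusted p = 0.0072) and than Exosc10 cKO (-0.38 ± 0.09 (SE), adjusted p = 4.8e-04). Against Dis3 cKO the value was -0.02, adjusted p = 0.93 with ERCC scaling, -0.17, adjusted p = 0.2 with first title number 1 only and -0.29, adjusted p = 0.078 with counts summed per tag. Against Exosc10 cKO it was -0.22, adjusted p = 0.093 with number 1 only. Wee2 was also higher in adult than in p20 controls (0.24 ± 0.08 (SE), adjusted p = 0.034). This call was lost with counts summed per title tag, and with ERCC scaling the value was -1.45, where the median gene was at -1.69.

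Pkmyt1, which encodes the other inhibitory kinase, was at 15.1 to 27.6 CPM (median 22.03) in GV controls, 25.2 to 36.2 CPM (median 30.7) at GV3h and 11.7 to 53.6 CPM (median 32.02) at MII. In Dis3 cKO it rose from 10.6 to 25.4 CPM (median 20.3) at GV to 20.4 to 43.4 CPM (median 31.7) at GV3h (1.603-fold, log2 fold change 0.68, SE 0.14, adjusted p = 3.7e-04), and in controls the same step was 0.45 ± 0.20 (SE), adjusted p = 0.23, or 0.46, adjusted p = 0.017 with only these 2 groups fitted. With title numbers 1 to 8 only, the Dis3 cKO step was 0.56, adjusted p = 0.053. With ERCC scaling 5 members were called higher over this step, among them Ccnb1 (0.39), Ccnb2 (0.47), Ccna2 (0.49) and Wee2 (0.31), as were 6269 of 17389 genes. From GV to MII it rose in controls (0.49 ± 0.20 (SE), adjusted p = 0.029, or 0.55, adjusted p = 0.074 with only the 2 groups fitted) and in Dis3 cKO (0.80 ± 0.14 (SE), adjusted p = 1.3e-06). In MII controls 6 to 8, the eggs with low Dis3, Pkmyt1 was at 15.8, 18.2 and 11.7 CPM, below the 5 others at 25.2 to 53.6, and without these 3 eggs the rise in controls was 0.87, adjusted p = 4.9e-05. Leaving out these 3 eggs, the lowest of the group, was chosen after the data were seen, so this value gives no support to a larger rise. With TMM scaling and all groups and libraries fitted, edgeR called Pkmyt1 in no comparison of a knockout with control. The dcKO level of Pkmyt1 was higher than that of Exosc10 cKO (0.37 ± 0.13 (SE), adjusted p = 0.019), a call lost under 5 of 9 alternatives, with ERCC scaling at 0.24, adjusted p = 0.41 among them. In dcKO against control its value of 0.29 ± 0.13 (SE), adjusted p = 0.057 passed with RLE size factors (0.33, adjusted p = 0.035), by DESeq2 (0.33, adjusted p = 0.036) and with only these 2 groups fitted (0.31, adjusted p = 0.03). In adult Dis3 cKO its value of -0.19 ± 0.08 (SE), adjusted p = 0.088 passed with ERCC scaling (-0.72, adjusted p = 0.011).

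Wee1, the somatic relative of Wee2, is not a member and was read for comparison. It went the opposite way from Wee2 at GV3h, with 10.5 to 21.04 CPM (median 15.1) in controls and 30.9 to 95.7 CPM (median 45.3) in Dis3 cKO and no overlap (log2 fold change 1.83, SE 0.23, adjusted p = 1.4e-09). At MII it was higher in Dis3 cKO as well (1.11 ± 0.22 (SE), adjusted p = 3.9e-05), and at p20 it was higher in dcKO than in control, at 199.6 ± 38.3 against 82.6 ± 22.2 CPM (1.28 ± 0.19 (SE), adjusted p = 1.4e-06). At GV the difference was 0.32 ± 0.22 (SE), adjusted p = 0.31. Nor was Wee1 called in adult RiboMinus Dis3 cKO (0.52 ± 0.20 (SE), adjusted p = 0.06). The p20 single knockouts were not called either, at 0.24 ± 0.19 (SE), adjusted p = 0.55 in Dis3 cKO and 0.15 ± 0.19 (SE), adjusted p = 0.71 in Exosc10 cKO.

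The phosphatases separated by isoform. Cdc25a encodes a phosphatase that also acts at entry into S phase. With TMM scaling and all groups and libraries fitted, edgeR called it in no comparison of a knockout with control. Its MII value of -0.23 ± 0.10 (SE), adjusted p = 0.062 passed with RLE size factors (-0.26, adjusted p = 0.031), by DESeq2 (-0.26, adjusted p = 0.047) and without MII Dis3 cKO egg 15 (-0.24, adjusted p = 0.044), and its adult RiboMinus value of 0.03 ± 0.07 (SE), adjusted p = 0.83 became -0.48, adjusted p = 0.045 with ERCC scaling. It was at 85.2 to 157 CPM in GV controls, 93.1 to 149 at GV3h and 87.3 to 143 at MII, and at 94.5 to 145, 87.6 to 146 and 72.8 to 119 in Dis3 cKO. It fell from GV to MII in Dis3 cKO (-0.32 ± 0.08 (SE), adjusted p = 7.0e-04, or -0.23, adjusted p = 0.085 with title numbers 1 to 8 only) and not in controls (-0.04 ± 0.12 (SE), adjusted p = 0.78), and the difference of the Dis3 effect between these stages did not pass the threshold (-0.28 ± 0.14 (SE), adjusted p = 0.2). It was higher in adult than in p20 controls (0.23 ± 0.08 (SE), adjusted p = 0.044), but not by DESeq2 (0.22, adjusted p = 0.06), with RLE size factors (0.22, adjusted p = 0.058) or with no low-count filter (0.25, adjusted p = 0.059). This call was also lost with counts summed per title tag, and with ERCC scaling the value was -1.46. Knockout log2 fold changes ran from -0.23 ± 0.10 at MII to 0.06 ± 0.09 in p20 Exosc10 cKO (SE).

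Cdc25b, whose product activates CDK1 when meiosis resumes, fell in 4 of 7 comparisons of a knockout with control. At GV3h it was at 69.5, 62.2, 71.3, 74.3, 56.1, 60.3, 72.4 and 69.03 CPM in controls and at 29.4 to 52.03 CPM (median 44.3) in Dis3 cKO. All 16 knockout oocytes were below all 8 controls (1.58-fold lower, log2 fold change -0.66, SE 0.20, adjusted p = 0.0068). At GV the ranges of 40.8 to 74.3 and 20.7 to 69.5 CPM overlapped (log2 fold change -0.44, SE 0.21, adjusted p = 0.12), and without knockout oocytes 6 and 8 the log2 fold change was -0.59, adjusted p = 0.032. In adult RiboMinus libraries it was at 78.5, 94.02, 106, 90.5, 88.03, 94.9, 80.8 and 86.4 CPM in controls and 35.4, 47.4, 37.8, 43.2, 54.2, 61.2, 52.8 and 56.2 in Dis3 cKO, with no overlap (1.83-fold lower, log2 fold change -0.87, SE 0.10, adjusted p = 7.5e-06). The means by title tag were 92.3 ± 11.5 and 87.5 ± 5.79 CPM for controls and 40.97 ± 5.38 and 56.1 ± 3.68 for knockouts (SD, n = 4 each), and with counts summed per tag the log2 fold change was -0.91, adjusted p = 0.13.

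At p20 Cdc25b fell in each single knockout, and in the double knockout it did not differ detectably from control. It was at 97.8, 86.9, 103, 103, 105, 95.4, 94.7 and 85.6 CPM in controls, 83.8, 62.4, 65.01, 47.5, 46.4, 60.3, 55.5 and 82.2 in Dis3 cKO and 79.9, 76.1, 72.2, 62.2, 60.4, 56.2, 49.3 and 40.3 in Exosc10 cKO. Both single knockouts lay wholly below the controls (log2 fold change -0.61, SE 0.12, adjusted p = 6.4e-04 for Dis3 cKO and log2 fold change -0.64, SE 0.12, adjusted p = 4.8e-04 for Exosc10 cKO). The dcKO oocytes were at 97.5, 102, 98.6, 97.6, 95.3, 80.1, 81.9 and 99.6 CPM, wholly within the range of the controls but for 2 oocytes below it (log2 fold change -0.03, SE 0.12, adjusted p = 0.87). They were higher than Dis3 cKO (1.501-fold, log2 fold change 0.59, SE 0.12, adjusted p = 1.4e-04) with some overlap, and than Exosc10 cKO without overlap (1.53-fold, log2 fold change 0.61, SE 0.12, adjusted p = 8.4e-05, or 0.50, adjusted p = 0.077 with ERCC scaling). Within the first title number the Exosc10 cKO difference was -0.43, adjusted p = 0.091, and within the second it was -0.88, adjusted p = 0.0047. With counts summed per title tag neither passed, at -0.64, adjusted p = 0.12 for Dis3 cKO and -0.62, adjusted p = 0.14 for Exosc10 cKO.

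From GV to MII Cdc25b fell in controls, from 40.8 to 74.3 CPM (median 52.9) to 14.7 to 27.98 CPM (median 21.9) with no overlap (2.56-fold, log2 fold change -1.35, SE 0.24, adjusted p = 1.8e-06). In Dis3 cKO it went from 20.7 to 69.5 CPM (median 41.7) to 11.8 to 90.4 CPM (median 24.05), which did not pass the threshold (log2 fold change -0.37, SE 0.17, adjusted p = 0.053). At MII the knockout eggs were higher than controls on average (0.54 ± 0.21 (SE), adjusted p = 0.035), and the effect differed from that at GV by 0.98 ± 0.30 (SE), adjusted p = 0.017. Knockout eggs 5, 7, 11 and 12 were at 56.3, 56.2, 90.4 and 50.3 CPM and the other 12 at 11.8 to 30.6. In the same order, their gene counts per count of added ERCC RNA were 71.5, 81.0, 73.7 and 54.1, against a group median of 53.3. Egg 6, among the other 12, was at 73.5. Whether this ratio has a part in the Cdc25b values was not tested. Without eggs 7 and 11 the difference at MII was 0.24, adjusted p = 0.29, that between stages was 0.69, adjusted p = 0.058, and the fall from GV to MII in Dis3 cKO was -0.67, adjusted p = 8.5e-05. Without MII controls 6 to 8 the difference at MII was 0.60, adjusted p = 0.061. In all, this MII call was lost under 7 of 10 alternatives, among them DESeq2 (0.50, adjusted p = 0.068), no low-count filter (0.49, adjusted p = 0.08), only the 2 groups fitted (0.51, adjusted p = 0.19) and title numbers 1 to 8 only (0.43, adjusted p = 0.13).

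Cdc25c, the remaining phosphatase of the family, fell with stage and in 2 knockout groups. It was at 12.8 to 31.6 CPM (median 20.5) in GV controls and 5.08 to 11.2 CPM (median 8.57) in MII controls, which did not overlap (2.47-fold lower, log2 fold change -1.30, SE 0.22, adjusted p = 6.6e-07). In Dis3 cKO the fall was 2.24-fold (log2 fold change -1.16, SE 0.16, adjusted p = 2.0e-09). At GV3h it was lower in Dis3 cKO than in control oocytes, 7.75 to 19.8 against 16.1 to 28.1 CPM (log2 fold change -0.73, SE 0.18, adjusted p = 0.0011), and at GV the difference was -0.37 ± 0.19 (SE), adjusted p = 0.17. In RiboMinus libraries it was at 7.85 to 11.2 CPM in p20 controls and 1.65 to 8.29 in dcKO (1.85-fold lower, log2 fold change -0.89, SE 0.27, adjusted p = 0.0054, or -0.80, adjusted p = 0.19 with the first title number 2 only), and adult oocytes gave 0.03 ± 0.13 (log2, SE).

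The plot of knockout changes sets the comparisons beside each other for each gene.

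**Figure D3:**
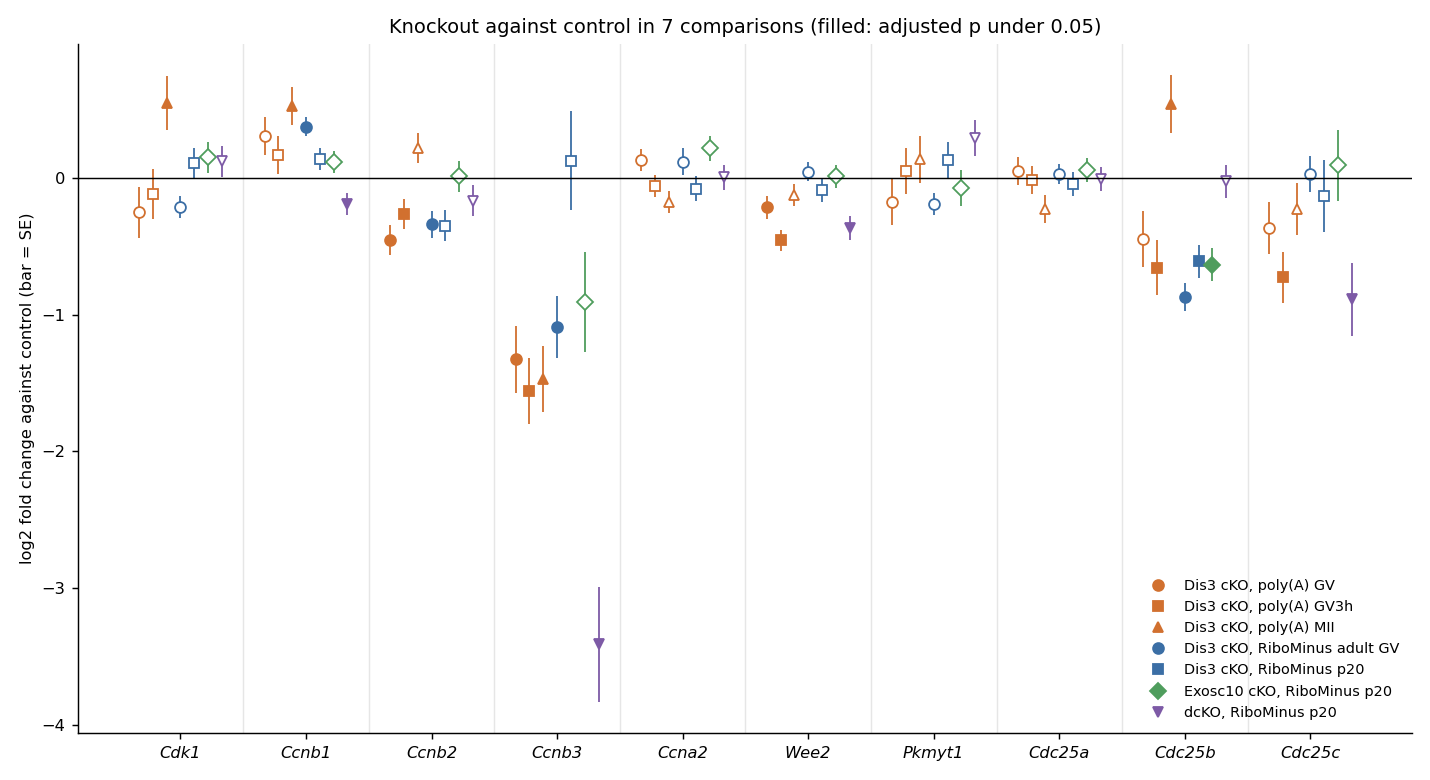
Log2 fold change of each gene against control in 7 comparisons, with bars of 1 SE; filled symbols passed an adjusted p of 0.05 and open symbols did not. Ccnb3 has the lowest value, -3.41 in p20 dcKO, and Cdc25b is below 0 in the 2 p20 single knockouts and near 0 in dcKO.

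All of these values are relative to the other genes of a library. Poly(A) libraries also held ERCC RNAs, a synthetic mix given to each lysate in the same dilution, and gene counts per ERCC count were 137 ± 16.2 (SD, n = 8) in GV controls and 46.0 ± 3.43 (SD, n = 8) in MII controls. Scaled to ERCC counts, the log2 fold change of the median gene in control eggs against GV oocytes was -2.12, against -0.27 relative to all genes. On that scale all 10 members fell in controls, from -0.54 for Ccna2 and -0.64 for Ccnb1 to -5.35 for Cdk1. Cdk1 went from 20.2 ± 3.63 reads per 1000 ERCC reads to 0.496 ± 0.195, and Ccnb1 from 42.4 ± 6.31 to 27.2 ± 5.41 (SD, n = 8). In Dis3 cKO Ccnb1 was at 0.15, the only member above 0. Ccnb1, Ccnb2, Ccna2, Wee2 and Pkmyt1 rose as a share of poly(A) RNA in controls and fell against the added RNA. No MII eggs were sequenced by RiboMinus, so a change in amount cannot be told apart here from a change in poly(A) tail length, on which the oligo-dT beads select.

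**Figure D4:**
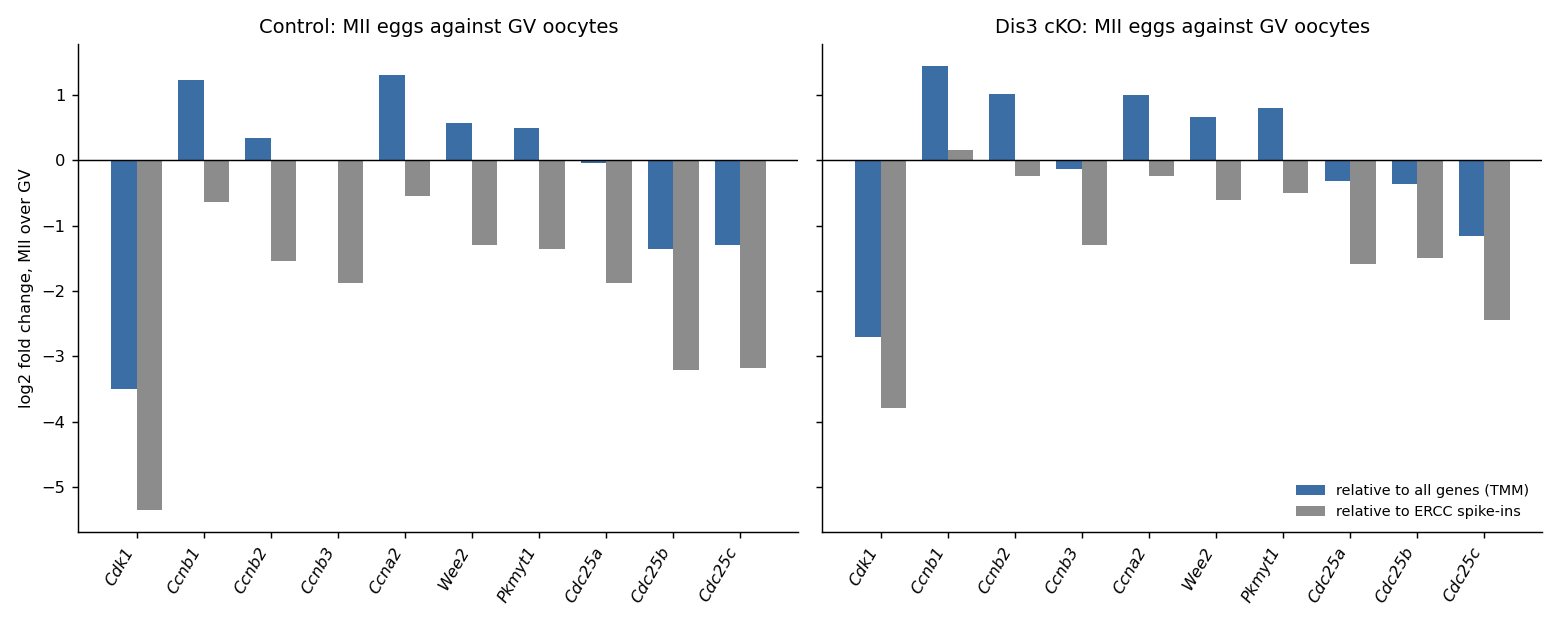
Log2 fold change from GV to MII of each gene in controls (left) and Dis3 cKO (right), relative to all genes (blue) and to ERCC spike-in counts (grey); bars are fitted values without an error. In controls Ccnb1 is at 1.22 relative to all genes and at -0.64 relative to ERCC counts, and Cdk1 is lowest on both scales.

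ERCC scaling left the direction of each called knockout effect on Ccnb3, Cdc25b, Ccnb2, Cdc25c and Cdk1 in place, but Ccnb2 (-0.29, adjusted p = 0.18) and Cdc25b (-0.67, adjusted p = 0.075) at GV3h and Cdc25b in Exosc10 cKO (-0.59, adjusted p = 0.2) no longer passed. It turned the adult RiboMinus value of Ccnb1 from 0.37 to -0.17, where the median gene shifted from 0.03 to -0.52. The adult and p20 controls had 403 ± 48.5 and 1267 ± 178 gene counts per ERCC count (SD, n = 8), and on that scale all 10 members were lower in adult than in p20 controls, as were 14797 of all 17267 genes tested. The amount of ERCC added to RiboMinus libraries is not given in the sources used here.

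A wider list of 71 regulators of the complex was read around the members, chosen as a textbook list with earlier results of these data known. Of these, 70 were tested in poly(A) libraries, where Ccna1, the germ-line cyclin A, did not pass the filter. In Dis3 cKO 6 of 70 rose and 7 fell at GV, 12 of 70 rose and 17 fell at GV3h and 14 of 70 rose and 16 fell at MII. From GV to MII in controls 25 of 70 rose and 26 fell, and in p20 dcKO 16 of 70 rose and 27 fell. The shares at GV, GV3h and MII stand near the background percentages given above, and those from GV to MII and in dcKO somewhat over them. The list's median log2 fold change was -0.04 against 0.04 for all genes at GV, -0.16 against 0.07 at GV3h, 0.02 against 0.16 at MII and -0.15 against -0.01 in dcKO.

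Cyclic AMP holds the prophase arrest, and Pde3a, which encodes the oocyte phosphodiesterase that breaks it down, fell in Dis3 cKO: -1.45 ± 0.12 (SE), adjusted p = 1.2e-15 at GV, -1.40 ± 0.12 (SE), adjusted p = 1.1e-15 at GV3h and -1.90 ± 0.12 (SE), adjusted p = 2.5e-22 at MII on the log2 scale. It fell in adult RiboMinus libraries too (-1.15 ± 0.11 (SE), adjusted p = 1.0e-06). At p20 it was -0.12 ± 0.13 in Dis3 cKO and -0.15 ± 0.13 in Exosc10 cKO (SE), past no threshold, and it fell in dcKO (-0.86 ± 0.13 (SE), adjusted p = 1.8e-06). The effect in adults differed from that at p20 (-1.04 ± 0.18 (SE), adjusted p = 9.1e-05). Adcy3, an adenylyl cyclase, rose at GV (0.78 ± 0.24), GV3h (0.58 ± 0.23) and MII (0.83 ± 0.23). Of 9 genes read for this arrest, 1 rose and 1 fell at GV in Dis3 cKO (21.9% of all genes called). At GV3h 2 rose and 2 fell (38.6%), and at MII 2 rose and 3 fell (42.1%).

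Among factors that control translation of stored cyclin B RNA, 4 genes were read. At GV and GV3h in Dis3 cKO, Cpeb1 and Cpeb4 were lower, Dazl was higher and Eif4e was not called. Cpeb1, which binds the cytoplasmic polyadenylation element, was -0.66 ± 0.13 (SE), adjusted p = 3.0e-05 at GV and -0.72 ± 0.12 (SE), adjusted p = 2.7e-06 at GV3h, and Dazl was 0.65 ± 0.13 (SE), adjusted p = 7.9e-05 and 1.08 ± 0.13 (SE), adjusted p = 6.9e-10. Cpeb4, a relative of Cpeb1, was -0.42 ± 0.13 (SE), adjusted p = 0.013 and -0.46 ± 0.13 (SE), adjusted p = 0.0035. At MII Cpeb1 and Dazl were not called, 0.01 ± 0.13 and -0.02 ± 0.13 (SE), while Cpeb4 (-0.48 ± 0.13 (SE), adjusted p = 0.0018) and Eif4e, which encodes the cap-binding protein, fell (-0.28 ± 0.10 (SE), adjusted p = 0.018). The difference of effect between MII and GV was called for Cpeb1 and Dazl, 0.67 ± 0.18 (SE), adjusted p = 0.0072 and -0.68 ± 0.18 (SE), adjusted p = 0.0065. In adult RiboMinus libraries Cpeb1 fell (-0.64 ± 0.12 (SE), adjusted p = 7.2e-04) and Dazl rose (0.53 ± 0.14 (SE), adjusted p = 0.0068).

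Polo and Aurora kinases and their activators amplify CDK1 activity, and 6 of their genes were read. In Dis3 cKO 2 were lower at GV (21.9% of all genes called) and 3 at GV3h (38.6%). At MII 0 were lower (42.1%), and in adult RiboMinus libraries 1 was (28.1%). At p20 1 was lower in Dis3 cKO (7.37%), 0 in Exosc10 cKO (7.45%) and 3 in dcKO (53.7%). The others were not called, and the counts were not tested against these shares. Aurka was -0.36 ± 0.09 and -0.62 ± 0.08 and Plk1 -0.30 ± 0.10 and -0.26 ± 0.10 at GV and GV3h, all 4 past the threshold. The spindle checkpoint holds back the APC/C until chromosomes are attached, and 6 of its genes were read. In Dis3 cKO 0 were lower at GV, 4 at GV3h, 3 at MII and 1 in adult RiboMinus libraries. At p20 0 were lower in each single knockout and 5 in dcKO, and the others were not called. The shares of all genes called were 38.6% at GV3h, 42.1% at MII and 53.7% in dcKO, and these counts were not tested against them. Ttk, a kinase of this checkpoint, was -0.52 ± 0.08 at GV3h and -0.69 ± 0.08 at MII. Ensa, an inhibitor of the phosphatase PP2A-B55, rose in the 3 poly(A) stages (0.53 ± 0.17, 0.89 ± 0.17 and 0.86 ± 0.17), and Mastl, the Greatwall kinase that activates it, fell at GV3h (-0.39 ± 0.10) and in p20 dcKO (-0.74 ± 0.10). Of 8 genes read for Greatwall and PP2A-B55, 1 rose and 0 fell at GV in Dis3 cKO. At GV3h 3 rose and 2 fell, at MII 2 rose and 4 fell, and in p20 dcKO 2 rose and 2 fell. Of the ubiquitin ligase APC/C that destroys cyclin B, the inhibitor gene Fbxo43 fell at GV (-0.24 ± 0.08), GV3h (-0.65 ± 0.08) and MII (-0.37 ± 0.08), and the activator gene Cdc20 rose at MII (0.88 ± 0.15). Of 17 genes read for the APC/C, its coactivators and inhibitors, 1 rose and 1 fell at GV in Dis3 cKO. At GV3h 1 rose and 3 fell, and at MII 5 rose and 2 fell. The shares of all genes called are those given above, and these counts were not tested against them. Cdk2, a sister kinase, rose in the 3 stages, from 0.48 ± 0.18 at GV to 0.93 ± 0.18 at MII, while Cdk1 was not called at GV or GV3h (with only the 2 GV groups fitted it was, at -0.26, adjusted p = 0.04). All values given with ± are log2 fold changes with SE.

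Genes with the most similar course were found over the 12 group means of log2 levels, centred within each protocol, among 12925 genes. Cdk1 was closest to Edf1 and Mrpl33 (r = 0.995 and 0.995), Ccnb1 to Eif1 and Cdc42se1 (0.991 and 0.987), and Ccna2 to Poc1b and Kdelc1 (0.987 and 0.984). Ccnb3 was closest to Mgam and Cflar (0.982 and 0.980), Wee2 to Spg20 and Fastkd1 (0.979 and 0.979), and Cdc25c to Gpr1 and Fam187b (0.977 and 0.974). Cdc25b was closest to Ddost and Arhgef4 (0.955 and 0.940), Ccnb2 to Sh3yl1 and Agpat1 (0.915 and 0.915), Cdc25a to Eif4e and Cc2d2a (0.916 and 0.898), and Pkmyt1 to Ube2g2 and Med25 (0.887 and 0.883). Among the members Ccnb1 and Ccna2 ran most closely together (r = 0.917), and Cdk1 and Ccna2 most oppositely (r = -0.963). These values describe 12 group means, and which steps lead each correlation was not tested.

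Like most genes, the 7 members with a listed promoter had no chromatin peak near their start shared by all 3 libraries of a group. Pol II and H3K27me3 peaks were called separately in each CUT&Tag library of pooled oocytes, with 3 libraries per group. Within 1 kb of the RefSeq start, 0 of the 7 members with a listed promoter had a Pol II peak in all 3 libraries of adult control, adult Dis3 cKO or p20 control oocytes, where 0.429%, 1.24% and 2.41% of 27025 genes did. Single lists held a peak at Wee2 in 1 adult control library and at Ccnb1, Ccnb3, Cdk1 and Wee2 in 1 adult Dis3 cKO library each, and at Ccnb2 in 1 p20 control library. H3K27me3, a repressive mark, was at 0 of the 7 starts in all 3 libraries of a group, where 11.5% to 18.9% of genes had it. In fewer libraries it was listed at Wee2 (2 p20 control and 1 adult control), Ccnb3 (1 adult control) and Cdc25a (1 p20 dcKO), and within 5 kb 1 member had it in all 3 p20 control libraries, where 30.6% of genes did. The lists differ in length, from 19697 to 35843 Pol II peaks in adult controls, 30311 to 122606 in adult Dis3 cKO and 74287 to 82446 in p20 controls, so a peak missing from a short list says little about that gene.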

How the data were processed

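Counts of reads per gene were deposited by the authors for each of 119 RNA libraries (71 poly(A) and 48 RiboMinus), as whole numbers with no normalization. The submitters' processing notes name cutadapt 2.5, STAR 2.7.2a, HTSeq 0.9.1, SAMtools 1.9, DESeq2 1.24.0, FastQC 0.11.8, SEACR and build mm10, the assembly that RefSeq calls GRCm38. No molecular identifiers are named in the sources used here, so amplified copies may be part of each count. Per the labels, an ERCC mix was added to each RNA library. The 21 CUT&Tag lists hold the authors' peaks called per library, with a signal value per peak as deposited, and the values were used only as a list of intervals. Groups come from the labels. The IgG libraries and GV Dis3 cKO number 9 were not analysed here.

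Levels are counts per 1000000 gene counts (CPM) with TMM scaling. Differences were tested with edgeR 4.0.16 (quasi-likelihood F test, filterByExpr, Benjamini-Hochberg over all genes tested, threshold 0.05) in R 4.3.3, with one fit for poly(A), one for each age of RiboMinus and one for the comparisons across ages. ERCC counts stayed out of library sizes and tests. DESeq2 1.42.0, other scalings, filters, sample sets, a replicate block and sums per title tag were the alternatives. GV control 1 and MII Dis3 cKO 15 were left out in turn because an earlier description of these data set them apart. Leaving out other libraries, and keeping only some title numbers, was chosen after seeing the data of the files. SE is that of the log2 fold change. Overlap means that the ranges of single oocytes overlap.

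All 10 members are named, with further regulators that passed the threshold with the largest changes from a textbook list, and Wee1 as the relative of Wee2. Members and lists were chosen with earlier results of these data known. Gene symbols were matched for 99.7% of poly(A) and 99.4% of RiboMinus IDs. No transcript lengths were used here, so levels are not per length and are no measure of which gene is the more abundant.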

Additional observations from a re-analysis of the deposited data

Results flagged for a closer look

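The effect of Dis3 loss at MII differed from that at GV for 3 members in the edgeR test of the difference: Cdk1 by 0.80, Ccnb2 by 0.68 and Cdc25b by 0.98 on the log2 scale, each higher at MII (adjusted p = 0.036, 0.0016 and 0.017). Over the alternatives run with edgeR or DESeq2, the adjusted p reached 0.19 for Cdk1 and 0.066 for Cdc25b. Both calls were lost without Dis3 cKO eggs 7 and 11, among other settings. For Ccnb2 it stayed at 0.023 or below.

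One oocyte stood far above the rest of its group in 7 of 90 tests of a member within a group, where chance gives about 1 in 20. Only groups of 8 libraries were tested, so the poly(A) Dis3 cKO groups, with 15 or 16, were not. Oocytes 1_4 and 2_1 were each flagged for more than 1 member, so the 7 are not independent. Oocyte 1_4 of p20 Dis3 cKO had 91.9 CPM of Cdk1 (next 58.5) and 122 CPM of Ccnb2 (next 86.5). Oocyte 2_1 of the p20 controls had 855 CPM of Wee2 (next 721) and 277 CPM of Cdc25a (next 219). GV control 1 had 139.6 CPM of Ccnb2 (next 107), adult control AM1759_3 had 15.4 CPM of Ccnb3 (next 11.2), and p20 Exosc10 cKO oocyte 2_4 had 932 CPM of Wee2 (next 761). Oocytes 1_4, 2_4 and AM1759_3 had the fewest gene counts per ERCC count of their groups. They were at 547, 582 and 336, against group medians of 1087, 1307 and 397. GV control 1 (141) and p20 control 2_1 (1078) were not the lowest of theirs. Whether this ratio has a part in these levels was not tested.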

How the results depend on the processing

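Of 1470 alternative values of the members, 1225 kept their direction and side of the threshold, 81 lost the call, 45 gained one, 96 changed sign with no call in either setting, under ERCC scaling and under others, and 23 changed sign with a call in at least 1 setting, all 23 with ERCC scaling. These 23 were, from GV to MII in controls, Ccnb1 -0.64, Ccnb2 -1.54, Ccnb3 -1.87, Ccna2 -0.54, Wee2 -1.30 and Pkmyt1 -1.36, and in Dis3 cKO Ccnb2 -0.24, Ccna2 -0.24, Wee2 -0.60 and Pkmyt1 -0.51. From GV to GV3h in Dis3 cKO they were Ccnb1 0.39, Ccnb2 0.47 and Wee2 0.31, and in adult Dis3 cKO Ccnb1 -0.17, Wee2 -0.52 and Cdc25a -0.48. Between adult and p20 controls they were Ccnb1 -1.49, Ccnb3 -1.49, Ccna2 -1.37, Wee2 -1.45, Pkmyt1 -1.55, Cdc25a -1.46 and Cdc25c -1.58. ERCC scaling moves all genes of a library together, and the median gene was at -1.69 in the last comparison.

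Counts of members called that moved by over 1.5 times were as follows, and the cause was not tested. With ERCC scaling they went from 5 to 3 in Dis3 cKO at GV3h, from 1 to 5 from GV to GV3h in Dis3 cKO, from 3 to 5 for the effect at MII against GV, from 4 to 7 in adult Dis3 cKO, from 1 to 2 in p20 Dis3 cKO, from 1 to 0 in Exosc10 cKO, from 5 to 3 in dcKO against Dis3 cKO, from 6 to 3 in dcKO against Exosc10 cKO and from 3 to 10 between adult and p20 controls. In the same order this scaling called 4896, 6434 and 5237 of all 17389 genes, 6843 of 15334, then 968, 364, 5864 and 5015 of 15882, and 14869 of 17267 between ages, 14797 of them lower. With only the 2 groups compared they went from 3 to 5 in Dis3 cKO at GV, from 4 to 2 at MII, from 0 to 1 from GV to GV3h in controls, and from 1 to 2 in each p20 single knockout. With counts summed per title tag they went from 4 to 0 in adult Dis3 cKO, from 1 to 0 in each p20 single knockout, from 5 to 3 in dcKO against Dis3 cKO and from 3 to 0 between ages, with 2 sums in each group. With these sums edgeR called 0 of all 20190 genes in adults (3577 at an unadjusted p under 0.05), 286 and 174 of 20911 in the p20 single knockouts, 5953 in dcKO against Dis3 cKO and 237 of 22815 between ages, so the adult 0 is no value of the members alone. With the first title number 1 only, Exosc10 cKO had 0 and dcKO against Exosc10 cKO 3, and with number 2 only p20 Dis3 cKO had 2, dcKO against control 2 and dcKO against Dis3 cKO 3. DESeq2 called 1 for adult against p20 effects. A window of 5 kb gave a Pol II peak in all 3 libraries at 1 of 7 member starts in adult Dis3 cKO and 1 of 7 in p20 controls, against 7.98% and 10.2% of all 27025 genes, and an H3K27me3 peak at 1 of 7 in p20 controls, against 30.6%. With no low-count filter the counts went from 3 to 2, which is 1.5 times, in Dis3 cKO at GV and for the effect at MII against GV.

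Leaving out libraries gave 2 to 4 calls in Dis3 cKO at GV, 5 at GV3h, 2 to 5 at MII, 1 to 4 for the effect at MII against GV, 1 from GV to GV3h in controls without GV control 1, 7 to 8 and 8 to 9 from GV to MII in controls and Dis3 cKO, and 2 in p20 Dis3 cKO without oocyte 1_4. The lower ends at MII (2 and 1) came without Dis3 cKO eggs 7 and 11. Without GV control 1, Wee2 at GV had -0.21, adjusted p = 0.073.

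Title numbers are shared between groups. Deviations of same-numbered libraries had a median correlation of 0.017 in poly(A) libraries (142 pairs, -0.21 to 0.25) and 0.028 at p20 (48 pairs, -0.43 to 0.53), and the highest median of any pair of groups was 0.15, for GV control against GV Dis3 cKO, where 5 of 8 pairs were over 0.1. In no pair of groups was every correlation over 0.1, so the numbers were not taken to pair the samples. The replicate block on numbers 1 to 8 gave 2 calls in Dis3 cKO at MII, 0 from GV to GV3h in Dis3 cKO and 1 for the effect at MII against GV, where Cdk1 had 0.46, adjusted p = 0.14 at MII and 0.69, adjusted p = 0.19 for the effect at MII against GV. Cdc25b had 0.38, adjusted p = 0.2 and 0.91, adjusted p = 0.066 in the same comparisons. At GV3h the block gave Ccnb2 -0.16, adjusted p = 0.31 in Dis3 cKO, and from GV to GV3h in Dis3 cKO it gave Pkmyt1 0.55, adjusted p = 0.078. Numbers 1 to 8 without the block gave 2 and 0 in the first 2 of these. At p20 the replicate block gave 2 calls in Dis3 cKO, where Ccnb2 had -0.37, adjusted p = 0.014. With counts summed per title tag Ccnb2 was not called in that comparison.

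Ccnb3 rests on few reads per library, down to 1 in dcKO, and precision there is limited by depth. Intervals between oocytes do not cover differences between females.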
